A study of Mus musculus with 12 samples.

Results

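The genes described here are 10 genes that make and break down prostaglandins and leukotrienes: *Pla2g4a*, *Ptgs1*, *Ptgs2*, *Ptges*, *Ptges2*, *Ptgis*, *Tbxas1*, *Alox5*, *Alox15* and *Hpgd*. They are listed by name and pathway role, with earlier results of these data known, and all 10 were found among the 55450 genes of the count table. Sequencing of mRNA covered cultured alveolar type II epithelial (AT2) cells of C57BL/6 mice aged 6 to 8 weeks. The *AhRfl/fl* mice carry an *AhR* gene flanked by loxP sites in every cell, and the *Sftpc-Cre;AhRfl/fl* mice carry the same floxed gene together with Cre recombinase under the *Sftpc* promoter, which is active in AT2 cells. Cells were enriched from dispase-digested lung by removing leukocytes, red cells and Sca-1-positive cells, cultured on collagen I and kept for 24 h with cockroach extract (CRE) at 50 µg/ml or with PBS, giving 4 groups of 3 libraries. Total counts lay between 68878065 and 80935797 per library. The labels do not say whether the 3 libraries of a group came from separate animals, so p-values measure the spread between these libraries.

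Prostaglandins and leukotrienes are short-lived lipid signals made from arachidonic acid. Cytosolic phospholipase A2, the product of *Pla2g4a*, frees arachidonic acid from membranes, and the cyclooxygenases encoded by *Ptgs1* and *Ptgs2* turn it into prostaglandin H2. *Ptgs1* is expressed steadily in many tissues, whereas *Ptgs2* is known as an inducible gene of inflammation. Terminal synthases then make prostaglandin E2 (*Ptges*, *Ptges2*), prostacyclin (*Ptgis*) or thromboxane (*Tbxas1*), while *Alox5* opens the leukotriene branch and *Alox15* makes other hydroxylated and lipoxin-type products. The enzyme encoded by *Hpgd* inactivates prostaglandins. In the lung, prostaglandin E2 comes largely from epithelium and fibroblasts, and leukotrienes come largely from leukocytes.

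Among the 10 genes *Ptgs2* was the most abundant in every group, and it was the only one that passed the test between genotypes. Averaged over treatments it was 2.08-fold lower in *Sftpc-Cre;AhRfl/fl* cells. That average includes the CRE libraries, in which the study had already picked *Ptgs2*. With CRE, *Ptgs2*, *Ptges* and *Pla2g4a* were higher and *Hpgd* was lower in all 6 same-numbered pairs of libraries, and these differences passed the test, averaged over genotypes, when the pairs were used. None of them passed in the main edgeR test without the pairs. DESeq2 (2.06% of all genes called) and the rule of the paper (4.02%), both without pairs, called *Ptgs2* averaged over genotypes. Of all genes tested, 7.57% were higher and 6.79% lower in all 6 pairs, and 6.59% passed on average with pairs. *Ptgs1* and *Ptgis* differed more between libraries of 1 group than between groups, and *Alox5*, *Alox15* and *Tbxas1* had low counts, between 4 and 373 per library.

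The upstream sequence of 8 of the 10 genes was found in the RefSeq promoter table (GRCm38.p6, 250 bases before to 50 bases after the start of the transcript). *Ptgis* and *Alox15* were not among them. The windows of *Ptgs2*, which differed between genotypes, of *Ptges*, which makes prostaglandin E2 from its product, and of *Ptgs1*, the paralog that did not pass any test, are shown 5′ to 3′ along the gene. Capitals mark matches, on either strand, to GCGTG (the core of the element that AhR and its partner ARNT bind), TGACG (the core of sites for CREB-type factors), CACGTG (an E-box), TATAAA (the TATA box) and the NF-kB consensus.

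*Ptgs2*, chr1:150099781-150100080, plus strand: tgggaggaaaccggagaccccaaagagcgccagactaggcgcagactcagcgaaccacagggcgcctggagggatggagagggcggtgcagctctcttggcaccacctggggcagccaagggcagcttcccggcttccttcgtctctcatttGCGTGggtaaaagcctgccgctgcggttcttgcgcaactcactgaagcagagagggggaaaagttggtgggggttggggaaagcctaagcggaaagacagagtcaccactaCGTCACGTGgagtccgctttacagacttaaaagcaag
*Ptges*, chr2:30903248-30903547, minus strand: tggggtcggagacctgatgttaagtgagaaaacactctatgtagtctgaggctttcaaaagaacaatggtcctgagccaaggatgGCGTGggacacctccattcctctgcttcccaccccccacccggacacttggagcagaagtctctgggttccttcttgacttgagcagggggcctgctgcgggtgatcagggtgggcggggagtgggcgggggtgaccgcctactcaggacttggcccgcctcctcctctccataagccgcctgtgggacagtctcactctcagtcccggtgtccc
*Ptgs1*, chr2:36230176-36230475, plus strand: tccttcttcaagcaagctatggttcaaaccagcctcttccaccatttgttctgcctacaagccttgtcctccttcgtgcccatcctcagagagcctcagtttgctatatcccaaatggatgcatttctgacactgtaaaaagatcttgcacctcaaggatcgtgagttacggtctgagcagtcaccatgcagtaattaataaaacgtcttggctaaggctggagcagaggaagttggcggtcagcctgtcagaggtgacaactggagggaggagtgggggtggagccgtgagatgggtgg

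The *Ptgs2* window held GCGTG beginning 98 bases before the start of the transcript. It also held TGACG on the other strand and CACGTG, beginning at bases 14 and 17 of the transcript and overlapping by 2 bases. The *Ptges* window held 1 match, GCGTG beginning 165 bases before the start, and the *Ptgs1* window held none. GCGTG was also found in a window of *Ptges2*, *Pla2g4a* and *Hpgd*, CACGTG in that of *Ptges2*, and TATAAA in windows of *Tbxas1*, *Hpgd* and *Pla2g4a*, whereas the *Alox5* window had no match. These are frequent letters: of all 32851 windows in the table, 32.4% held GCGTG, 20.8% TGACG, 7.15% CACGTG, 13.6% TATAAA and 4.51% the NF-kB consensus. A match is a description of the sequence, and binding was not measured.

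Levels were compared between genes as FPKM, the fragments scaled to gene length and library size deposited by the authors. In *AhRfl/fl* cells with PBS, *Ptgs2* had a mean of 107.9 FPKM ± 20.9 (SD, n = 3), which placed it at rank 434 of 55450 genes. *Ptgis* followed with 24.3 ± 9.80, *Ptgs1* with 17.7 ± 4.37 and *Pla2g4a* with 10.05 ± 0.451 FPKM. The means of *Ptgis* and *Ptgs1*, neighbours in this order, differed by less than the SD of *Ptgis*, and their libraries overlapped. *Ptges* (7.58 ± 2.90 FPKM), *Ptges2* (4.79 ± 0.234 FPKM) and *Hpgd* (4.52 ± 1.03 FPKM) formed a lower set whose ranges overlapped. *Tbxas1*, *Alox5* and *Alox15* stood below 0.5 FPKM in every library, with means of 0.203, 0.177 and 0.0451 FPKM in this group. The means kept this order in the other 3 groups, as the plot of FPKM by library shows.

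**Figure D1:**
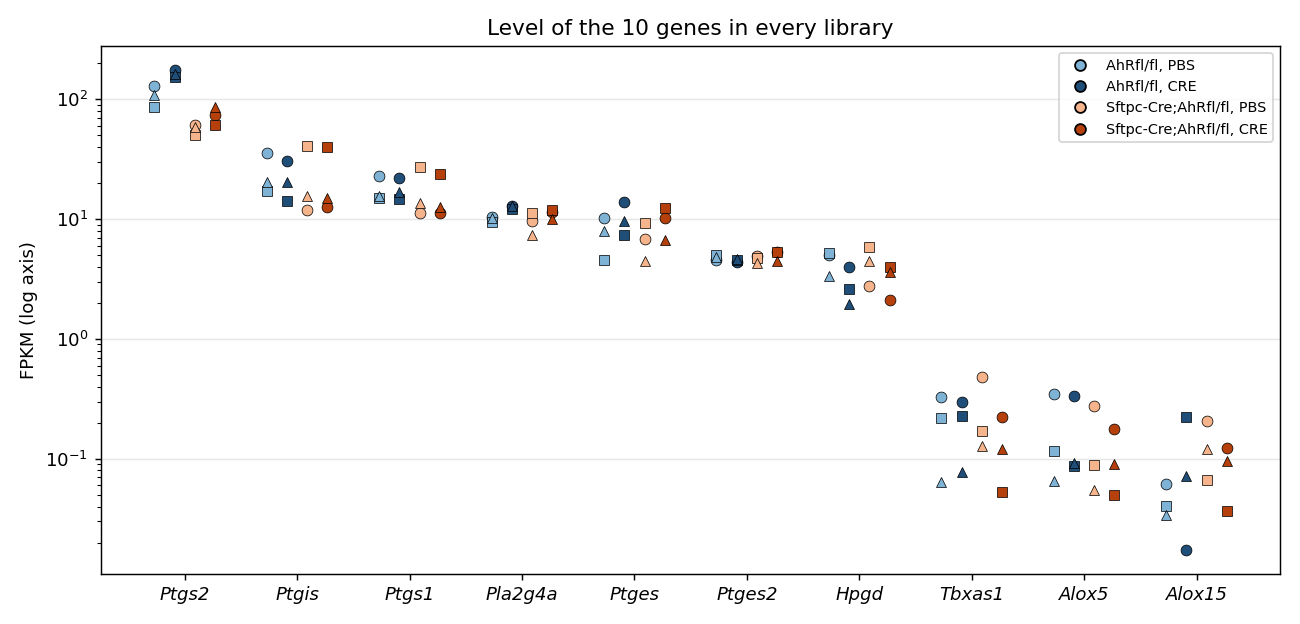
FPKM on a log axis of the 10 genes, ordered by their mean over 12 libraries, with 1 point per library, colours for the 4 groups and marker shapes for replicates 1, 2 and 3 (circle, square, triangle). *Ptgs2* lies above the other 9 genes in all 12 libraries, from 50.0 to 175.6 FPKM, and *Alox15* reaches no more than 0.225 FPKM.

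In GRCm38 the genes lie on chromosomes 1 (*Ptgs2*, chr1:150100031-150108227, plus strand, and *Pla2g4a*, chr1:149829618-149961290, minus strand), 2 (*Ptges*, *Ptges2*, *Ptgs1* and *Ptgis*), 6 (*Alox5* and *Tbxas1*), 8 (*Hpgd*) and 11 (*Alox15*). In the annotation the exons of *Ptgs1*, *Ptgis* and *Tbxas1* overlap those of a gene on the other strand (*Gm43621*, *1110018N20Rik* and *Gm42962*), and whether counting used the strand is not given in the sources used here. These neighbours had mean counts of 21.7, 1.0 and 0.2 per library, against 5666, 4960 and 154.6 for the 3 genes.

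The cells were checked against AT2 markers. All 12 of the markers listed had a count in every library, with *Sftpc*, surfactant protein C, between 3086 and 6492 CPM (counts scaled to library size with TMM). So did all listed markers of AT1, club and ciliated cells, leukocytes, fibroblasts and smooth muscle, endothelium and mesothelium. The club cell marker *Scgb1a1* had a mean of 5415 CPM, beside 5081 CPM for *Sftpc*. The other listed club cell markers were far lower, with means from 2.84 CPM for *Scgb3a2* to 148.5 CPM for *Cbr2*. A count in every library is therefore no measure of how pure the AT2 cells were. *Ahr* itself lay between 37.7 and 56.2 CPM and did not pass the test between genotypes (log2 fold change 0.039 with PBS and -0.18 with CRE). The paper reports AhR deficiency in AT2 cells of *Sftpc-Cre;AhRfl/fl* mice by RT-PCR, and loss of AhR by staining of lung tissue. Counts over a whole gene in bulk libraries do not show which part of it is missing, or in which cells. Why the *Ahr* counts did not differ between genotypes was not tested. *Cyp1b1*, a classical AhR target, was lower in *Sftpc-Cre;AhRfl/fl* cells by 3.10 with PBS and 3.17 with CRE on the log2 scale, without overlap. *Cyp1a1*, another AhR target, was at 19.8 to 34.5 CPM in *AhRfl/fl* and 5.11 to 15.2 CPM in *Sftpc-Cre;AhRfl/fl* libraries, and fell by 1.52 (SE 0.27; adjusted p = 0.0324) averaged over treatments.

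The genes were then compared between *Sftpc-Cre;AhRfl/fl* and *AhRfl/fl* cells. The genotypes also differ in the presence of Cre, and no group carries Cre alone. Cre and other differences between the mice therefore cannot be told apart from the loss of AhR. *Ptgs2*, encoding the inducible cyclooxygenase-2, was lower in *Sftpc-Cre;AhRfl/fl* cells with either treatment. The *AhRfl/fl* libraries with PBS held 644.7, 451.9 and 562.4 CPM of *Ptgs2* in replicates 1, 2 and 3, against 298.2, 251.1 and 303.0 CPM in *Sftpc-Cre;AhRfl/fl* libraries with PBS. The CRE libraries held 878.6, 797.2 and 841.5 CPM in *AhRfl/fl* and 367.6, 314.1 and 449.2 CPM in *Sftpc-Cre;AhRfl/fl* libraries. Every *Sftpc-Cre;AhRfl/fl* library was below every *AhRfl/fl* library, also across treatments, since the highest of the former (449.2 CPM) was just under the lowest of the latter (451.9 CPM).

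The difference in *Ptgs2* was -0.96 (SE 0.15) on the log2 scale with PBS and -1.15 (SE 0.15) with CRE, with adjusted p-values of 0.0414 and 0.0114 in the edgeR quasi-likelihood test after Benjamini-Hochberg adjustment. These correspond to 1.95-fold and 2.23-fold lower levels. With PBS 1 of the 10 genes was called, where 0.15% of all 20612 genes tested were called, and with CRE 1 of 10, where 0.17% were. Averaged over treatments, the difference was -1.06 (SE 0.11; adjusted p = 0.000974), and *Ptgs2* was again the only one of the 10 called, against 0.631% of all genes (0.437% lower, and 0.102% and 0.112% lower with PBS and with CRE). *Ptgs2* with CRE had been picked by the study from these samples, so its lower level there is not independent evidence. The averaged difference includes the same CRE libraries and is therefore not independent of that choice either. The call with PBS was lost (adjusted p up to 0.178) when *AhRfl/fl* replicate 1 or 3 or any of the 3 *Sftpc-Cre;AhRfl/fl* libraries was left out and when only the 6 libraries compared were fitted (0.202). The call with CRE was lost without *Sftpc-Cre;AhRfl/fl* replicate 1 (0.0674) or 2 (0.056) and with only 6 libraries (0.0617), whereas the averaged difference passed without any 1 of the 12 libraries.

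**Figure D2:**
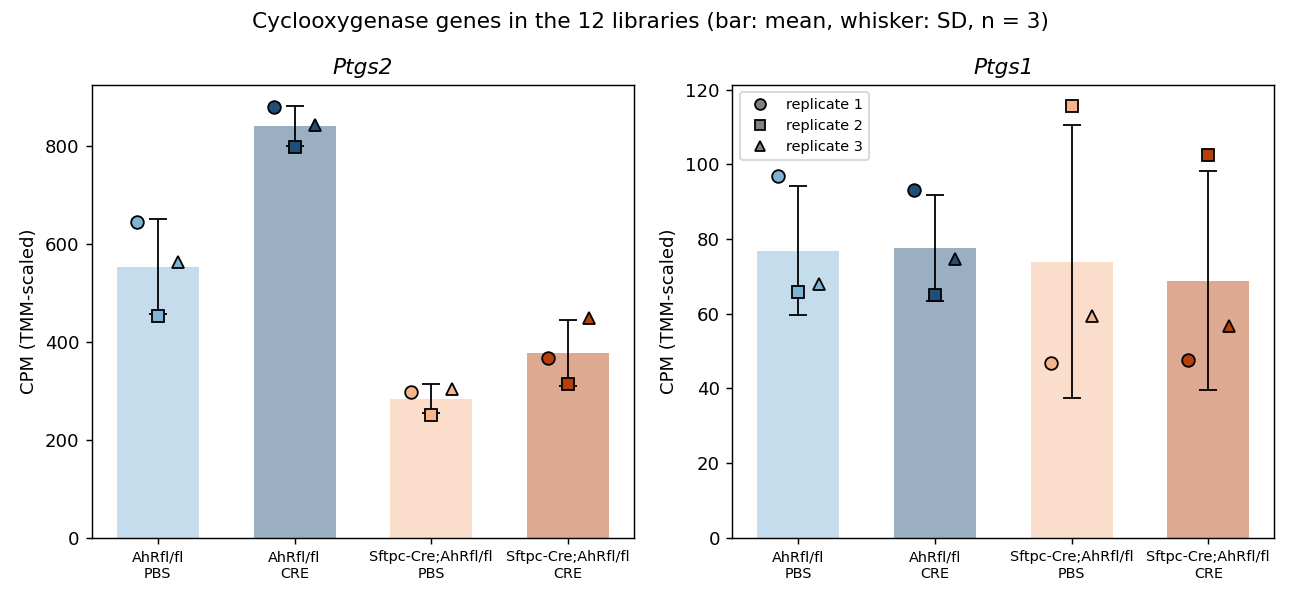
CPM of *Ptgs2* (left) and *Ptgs1* (right) in each group, with bars for the mean of 3 libraries, whiskers for the SD and 1 point per library. The 6 *Sftpc-Cre;AhRfl/fl* libraries lie at or below 449.2 CPM of *Ptgs2* and the 6 *AhRfl/fl* libraries at or above 451.9 CPM, while for *Ptgs1* the genotypes overlap.

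Markers of other cells were read beside this result. The summed level of 10 neutrophil markers was 66.5, 61.0 and 9.11 CPM in *AhRfl/fl* libraries with PBS and 19.1, 22.9 and 6.16 CPM in *Sftpc-Cre;AhRfl/fl* libraries with PBS. With CRE it was 55.3, 56.9 and 19.2 CPM in *AhRfl/fl* and 26.6, 25.2 and 6.40 CPM in *Sftpc-Cre;AhRfl/fl* libraries. In the *AhRfl/fl* PBS library with the lowest sum (9.11 CPM), *Ptgs2* was at 562.4 CPM. The summed level of 8 ciliated cell markers ran from 146.3 to 201.1 CPM in *AhRfl/fl* and from 195.6 to 320.7 CPM in *Sftpc-Cre;AhRfl/fl* libraries with PBS, which overlapped. With CRE it ran from 130.1 to 192.3 CPM in *AhRfl/fl* and from 198.3 to 312.6 CPM in *Sftpc-Cre;AhRfl/fl* libraries, without overlap. That of 12 AT2 markers was lowest in replicate 1 of the *Sftpc-Cre;AhRfl/fl* cells (4698 CPM with PBS), and *Ptgs2* in this library (298.2 CPM) was within 5 CPM of that in replicate 3 (303.0 CPM), where the AT2 sum was 9131 CPM. With CRE, replicate 1 held 367.6 CPM of *Ptgs2* at an AT2 sum of 4883 CPM and replicate 3 held 449.2 CPM at 9664 CPM. The part of these cells in the *Ptgs2* difference was not tested, and in bulk libraries fewer cells of a type cannot be told apart from less RNA per cell.

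None of the other 9 genes was called between genotypes, and their adjusted p-values in the edgeR quasi-likelihood test were 0.577 or more when averaged over treatments. *Pla2g4a*, the phospholipase, held 73.0, 69.5 and 73.8 CPM in *AhRfl/fl* and 66.4, 78.0 and 52.8 CPM in *Sftpc-Cre;AhRfl/fl* libraries with PBS. With CRE it held 89.3, 88.3 and 92.9 CPM in *AhRfl/fl* and 79.9, 84.6 and 73.6 CPM in *Sftpc-Cre;AhRfl/fl* libraries. The genotypes overlapped with PBS and did not with CRE, where the difference was -0.18 (SE 0.12; adjusted p = 0.957). With CRE, *Ptgs2* and *Pla2g4a* were thus 2 of 10 genes with every *Sftpc-Cre;AhRfl/fl* library lower, and 5.43% of all genes tested were so. With PBS, *Ptgs2* was the only gene of the 10 with every *Sftpc-Cre;AhRfl/fl* library lower (7.38% of all genes), and *Alox15* the only one with every one higher (6.6% of all genes), at counts of 8 to 44. *Ptges2*, a second prostaglandin E synthase, was nearly level throughout, between 24.2 and 30.2 CPM.

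**Figure D3:**
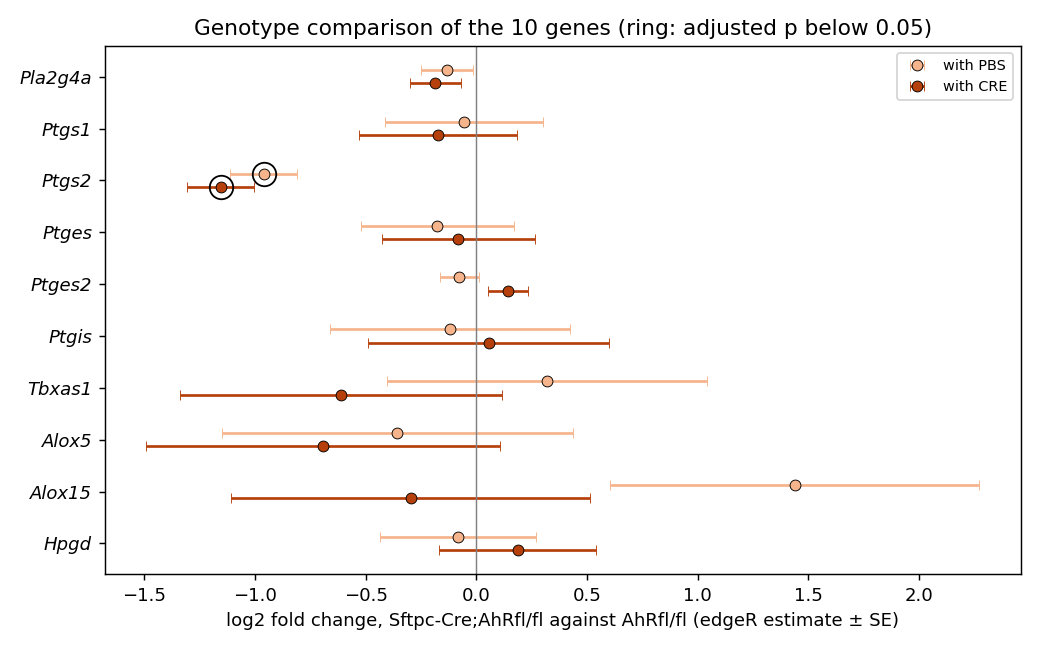
Log2 fold change of *Sftpc-Cre;AhRfl/fl* against *AhRfl/fl* cells for the 10 genes, with PBS (light) and with CRE (dark), as edgeR estimates with their SE, where a ring marks an adjusted p below 0.05. Only the 2 *Ptgs2* values, -0.96 and -1.15, carry a ring, and the widest errors belong to *Alox15*, *Alox5* and *Tbxas1*.

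The 2 cyclooxygenases were also set against each other within each library. *Ptgs2* made up 85.0%, 85.3% and 87.5% of the summed *Ptgs1* and *Ptgs2* FPKM in *AhRfl/fl* libraries with PBS and 84.4%, 64.8% and 81.2% in *Sftpc-Cre;AhRfl/fl* libraries with PBS. With CRE its share was 88.9%, 91.2% and 90.5% in *AhRfl/fl* and 86.8%, 72.2% and 87.05% in *Sftpc-Cre;AhRfl/fl* libraries. The share was lower in every *Sftpc-Cre;AhRfl/fl* library than in any *AhRfl/fl* library of the same treatment, and replicate 2 of the *Sftpc-Cre;AhRfl/fl* cells, where *Ptgs1* was highest, stood apart from the others. The mean differed by -9.14 points with PBS and -8.19 points with CRE. Both gave p = 0.1 in an exact two-sided permutation test, the smallest p that 3 libraries against 3 can give. Without replicate 2 of the *Sftpc-Cre;AhRfl/fl* cells the differences shrank to -3.15 points with PBS and -3.30 points with CRE. Between CRE and PBS the mean share was 4.27 points higher in *AhRfl/fl* cells (exact permutation p = 0.1) and was 5.22 points higher in *Sftpc-Cre;AhRfl/fl* cells (exact permutation p = 0.5). This test did not use the pairs. In *Sftpc-Cre;AhRfl/fl* cells, leaving out replicate 2 with PBS while keeping replicate 2 with CRE turned the direction (-0.772 points). Within same-numbered pairs of these cells the share was higher with CRE each time (84.4% to 86.8%, 64.8% to 72.2% and 81.2% to 87.05%). None of the 4 comparisons could pass 0.05 in this test.

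The CRE response was compared next. *Ptgs2* was higher with CRE in every library than in any PBS library of the same genotype. The log2 ratio of CRE to PBS within same-numbered pairs was 0.45, 0.82 and 0.58 in *AhRfl/fl* and 0.30, 0.32 and 0.57 in *Sftpc-Cre;AhRfl/fl* cells. All 6 pairs thus moved the same way, by more in *AhRfl/fl* replicate 2 than in the others. In the fit without pairs the difference was 0.60 (SE 0.15; adjusted p = 0.192) in *AhRfl/fl* cells, 0.41 (SE 0.15; adjusted p = 0.65) in *Sftpc-Cre;AhRfl/fl* cells and 0.50 (SE 0.11; adjusted p = 0.0541) averaged over genotypes, by the edgeR quasi-likelihood test. None of the 10 genes was called in these 3 comparisons, in which 0.233%, 0.262% and 1.1% of all genes were. At an unadjusted p below 0.05, 2 of the 10 stood in each of them, *Ptgs2* and *Pla2g4a*, beside 9.36%, 6.48% and 11.1% of all genes, and DESeq2 called *Ptgs2* in *AhRfl/fl* cells (1.06% of all genes it tested) and on average (2.06%).

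Libraries with the same number deviated together between PBS and CRE in all 3 pairs of both genotypes. The labels do not say that such libraries share a mouse or a preparation, so the pairing rests on this likeness. On that basis the CRE response was also fitted with the pair as a term within genotype. *Ptgs2* then rose in *AhRfl/fl* cells by 0.62 (SE 0.08; adjusted p = 0.0138) and averaged over genotypes by 0.51 (SE 0.057; adjusted p = 0.0036), again by the edgeR quasi-likelihood test. In *Sftpc-Cre;AhRfl/fl* cells it was higher by 0.40 (SE 0.08; adjusted p = 0.0634) and did not pass. The response did not pass as different between genotypes, at -0.19 (SE 0.21; adjusted p = 1.0) without pairs and -0.22 (SE 0.11; adjusted p = 0.607) with them. No gene at all was called in that comparison by edgeR, 763 stood at an unadjusted p below 0.05, none of them among the 10, and DESeq2 called 21 genes (0.0656%), again none of the 10. By the rule of the paper 2.3% of all genes were called there, none of them among the 10.

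*Ptges*, the inducible prostaglandin E synthase that works downstream of cyclooxygenase-2, followed the same direction. Its levels in *AhRfl/fl* cells were 44.5, 20.4 and 35.1 CPM with PBS and 59.7, 32.8 and 43.5 CPM with CRE. Those in *Sftpc-Cre;AhRfl/fl* cells were 29.0, 39.8 and 19.6 CPM with PBS and 43.5, 54.6 and 30.5 CPM with CRE. The groups overlapped, but each CRE library exceeded the PBS library of its number, with log2 ratios between 0.31 and 0.69. Without pairs the difference averaged over genotypes was 0.49 (SE 0.25) and was not called (adjusted p = 0.517). With pairs *Ptges* rose in *AhRfl/fl* cells by 0.47 (SE 0.084; adjusted p = 0.0349), in *Sftpc-Cre;AhRfl/fl* cells by 0.56 (SE 0.084; adjusted p = 0.025) and on average by 0.52 (SE 0.059; adjusted p = 0.00404) in the edgeR quasi-likelihood test.

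*Pla2g4a* was higher with CRE in 6 of 6 pairs, with log2 ratios between 0.12 and 0.48. In *AhRfl/fl* cells the CRE libraries (88.3 to 92.9 CPM) did not overlap the PBS libraries (69.5 to 73.8 CPM). On average the difference was 0.30 (SE 0.083; adjusted p = 0.152) without pairs, and with pairs it rose by 0.31 (SE 0.05; adjusted p = 0.0153) in the edgeR quasi-likelihood test. *Hpgd*, which inactivates prostaglandins, had the opposite sign. It stood at 9.28, 9.96 and 6.37 CPM with PBS and at 7.27, 5.0 and 3.79 CPM with CRE in *AhRfl/fl* cells. The *Sftpc-Cre;AhRfl/fl* cells stood at 4.99, 10.7 and 8.48 CPM with PBS and at 3.87, 7.45 and 6.96 CPM with CRE. Levels overlapped between groups, and *Hpgd* was lower with CRE in 6 of 6 pairs. The averaged difference was -0.54 (SE 0.25; adjusted p = 0.466) without pairs and -0.54 (SE 0.10; adjusted p = 0.0249) with pairs in the edgeR quasi-likelihood test, and with pairs it did not pass within either genotype alone.

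With pairs 2 of the 10 genes were called in *AhRfl/fl* cells (3.63% of all genes), 1 in *Sftpc-Cre;AhRfl/fl* cells (2.13%) and 4 on average (6.59%). Of the 10 genes, 3 were higher with CRE in all 6 pairs, as were 7.57% of all genes tested, and 1 was lower in all 6, as were 6.79%. *Ptges2* alone of the 10 was lower in all 3 pairs of *AhRfl/fl* and higher in all 3 pairs of *Sftpc-Cre;AhRfl/fl* cells, and 4.48% of all genes had pairs in such opposite directions. In *AhRfl/fl* cells 2 genes, *Ptgs2* and *Pla2g4a*, had every CRE library above every PBS library (8.82% of all genes), and in *Sftpc-Cre;AhRfl/fl* cells 1 gene did, *Ptgs2* (6.49%). The median log2 fold change over the 10 genes was -0.0071 on average over genotypes without pairs, beside -0.0021 over all genes. By the rule of the paper (a limma p under 0.05 before adjustment, with a log2 fold change of over 0.5 either way) *Ptgs2* alone of the 10 was called with CRE in *AhRfl/fl* cells (4.11% of all genes), and in *Sftpc-Cre;AhRfl/fl* cells none of the 10 was (3.38%). The same rule called *Ptgs2* alone between genotypes with PBS (4.1%), with CRE (3.42%) and averaged (4.11%), and for CRE averaged (4.02%).

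DESeq2 called *Ptgs2* alone of the 10 between genotypes with PBS (0.687% of all genes), with CRE (0.497%) and averaged (1.6%), and none of the 10 for CRE in *Sftpc-Cre;AhRfl/fl* cells (0.681%). With the replicate number as a term in edgeR, *Ptgs2* alone was called between genotypes with PBS (0.344%), with CRE (0.267%) and averaged (1.08%) and 1 of the 10 for CRE in *AhRfl/fl* cells (0.665%) and averaged (2.57%), and none in *Sftpc-Cre;AhRfl/fl* cells (0.543%).

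**Figure D4:**
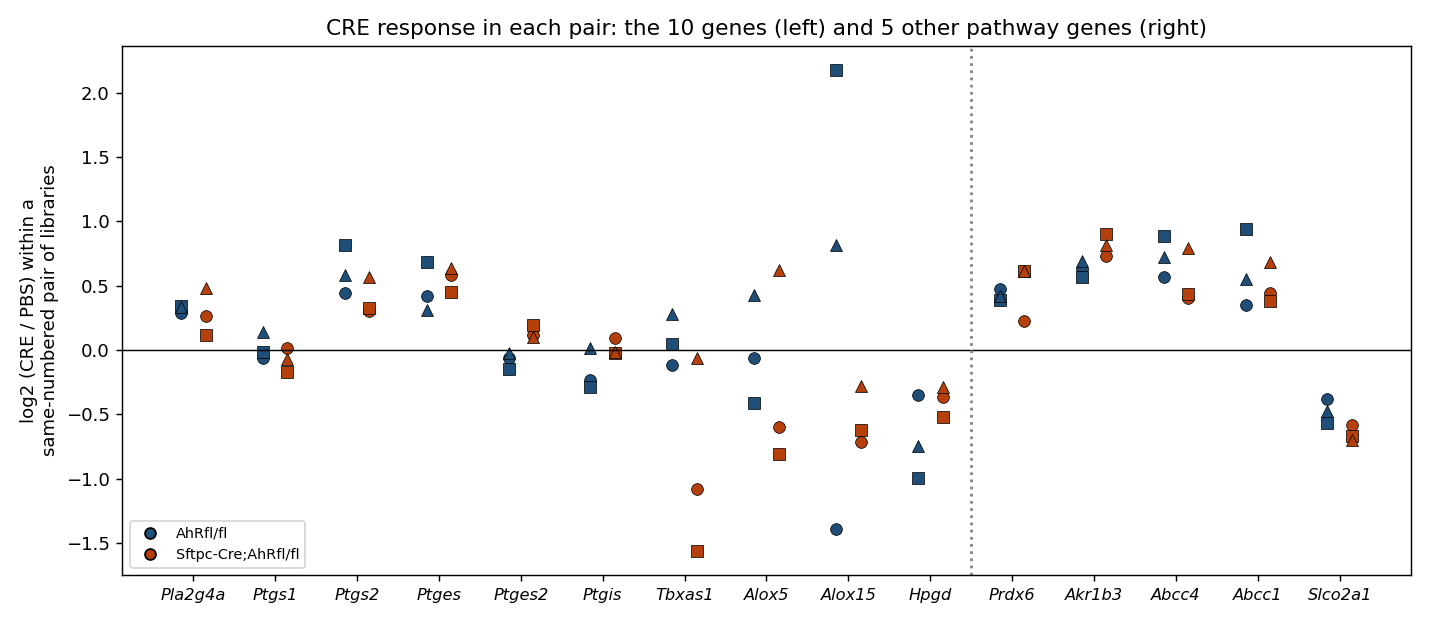
Log2 ratio of CRE to PBS within each same-numbered pair of libraries, 3 pairs per genotype (blue *AhRfl/fl*, orange *Sftpc-Cre;AhRfl/fl*), for the 10 genes left of the dotted line and 5 other pathway genes right of it. *Ptgs2*, *Ptges* and *Pla2g4a* lie above 0 and *Hpgd* lies below 0 in all 6 pairs, while *Tbxas1*, *Alox5* and *Alox15* scatter to both sides.

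*Ptgs1*, the constitutive cyclooxygenase, held 96.8, 65.9 and 67.9 CPM in *AhRfl/fl* libraries with PBS and 93.0, 65.1 and 74.7 CPM with CRE. The *Sftpc-Cre;AhRfl/fl* libraries held 46.9, 115.5 and 59.5 CPM with PBS and 47.5, 102.4 and 56.7 CPM with CRE. Replicate 1 was the highest of the *AhRfl/fl* cells and replicate 2 the highest of the *Sftpc-Cre;AhRfl/fl* cells, with either treatment. All 4 groups overlapped, and the CRE ratio within pairs stayed between -0.17 and 0.14 on the log2 scale. *Ptgis*, prostacyclin synthase, had the same high libraries. It reached 99.9 CPM with PBS and 84.9 CPM with CRE in *AhRfl/fl* replicate 1, and 115.0 and 113.4 CPM in *Sftpc-Cre;AhRfl/fl* replicate 2, where the other 8 libraries held 33.1 to 59.4 CPM. Neither gene was called in any of the comparisons.

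The gene whose log2 CPM was most like that of *Ptgs1* over the 12 libraries was *Ptgis* (Pearson r = 0.978), and it was still first (r = 0.992) after group means were subtracted. *Ccn4*, *Sulf1*, *Aldh1a2* and *Bnc1* followed, with r of 0.971 to 0.975, and *Aldh1a2*, *Gpm6a*, *Rspo1* and *Bnc1* (r of 0.983 to 0.990) after the subtraction. The 12 libraries share culture and depth, so these values are descriptions. The sum of 11 fibroblast and smooth muscle markers was also highest in *AhRfl/fl* replicate 1 (398.9 CPM with PBS, 359.1 CPM with CRE) and *Sftpc-Cre;AhRfl/fl* replicate 2 (429.3 and 380.0 CPM). In the other 8 libraries the sum ran from 154.5 to 306.6 CPM. Within *Sftpc-Cre;AhRfl/fl* cells replicate 1 had a higher sum (252.1 CPM with PBS) and less *Ptgs1* (46.9 CPM) than replicate 3 (184.9 CPM and 59.5 CPM). The sum of 5 mesothelium markers was highest in replicate 2 of the *Sftpc-Cre;AhRfl/fl* cells (316.3 and 253.4 CPM) and in replicate 3 of the *AhRfl/fl* cells (256.9 and 232.9 CPM). Among these markers, sorted after their values were seen, *Lrrn4* and *Wt1* had the same highest library as *Ptgs1* in each group. *Lrrn4* held 49.4 and 40.1 CPM in *AhRfl/fl* replicate 1 and 84.0 and 53.3 CPM in *Sftpc-Cre;AhRfl/fl* replicate 2. The others differed in *AhRfl/fl* cells, where *Msln*, *Upk3b* and *Upk1b* were highest in replicate 3 with either treatment. In *Sftpc-Cre;AhRfl/fl* cells *Upk3b* (13.9 and 6.33 CPM) and *Upk1b* (64.4 and 39.6 CPM) were highest in replicate 2, as *Ptgs1* was. *Msln* was highest in replicate 1 of these cells. The part of fibroblasts and mesothelium in the level of both genes was not tested.

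*Alox5*, arachidonate 5-lipoxygenase, had low counts. Its counts were 119, 39 and 25 in *AhRfl/fl* libraries with PBS, 122, 32 and 33 with CRE, and 98, 35 and 20 with PBS and 64, 17 and 33 with CRE in *Sftpc-Cre;AhRfl/fl* libraries. Replicate 1 was the highest in each of the 4 groups. *Tbxas1*, thromboxane synthase, had 244, 155 and 52 counts in *AhRfl/fl* libraries with PBS and 241, 178 and 61 with CRE. In *Sftpc-Cre;AhRfl/fl* libraries it had 373, 140 and 98 counts with PBS and 175, 41 and 97 with CRE, and replicate 1 was again the highest in each group. *Alox15* stayed between 4 and 47 counts per library. Its highest library, *AhRfl/fl* replicate 2 with CRE (47), and its lowest, replicate 1 of that same group (4), came from a single group. Counts of 4 and 8 were over-represented among low counts in every library, so *Alox15* values may be coarser than single reads.

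The summed level of 10 leukocyte markers was 501.2, 87.2 and 29.0 CPM in *AhRfl/fl* libraries with PBS, and the CRE libraries of the same number held 452.0, 83.2 and 25.2 CPM. In *Sftpc-Cre;AhRfl/fl* libraries it was 377.1, 83.1 and 110.7 CPM with PBS and 360.7, 81.5 and 108.7 CPM with CRE. Replicate 1 was thus the highest in each group, as for *Alox5*, although cells with CD45 were removed at isolation. *Alox5ap*, the protein that presents arachidonic acid to 5-lipoxygenase, had the same order in that its level in replicate 1 (5.63 to 9.10 CPM) was above that in replicates 2 and 3 (0.859 to 4.13 CPM). The genes most like *Alox5* were *St6galnac3*, *H2-T10*, *Smap2*, *Psap* and *Cd200r1* (r of 0.940 to 0.948). Those most like it after group means were subtracted were *Cd200r1*, *Epsti1*, *Clec4a3*, *St6galnac3* and *Smap2*, with r of 0.975 to 0.981 over 12 libraries. The part of leukocytes in these levels was not tested. None of *Alox5*, *Alox15* and *Tbxas1* was called in any comparison, with SE between 0.51 and 0.83 on the log2 scale in the comparisons of groups and of averages.

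**Figure D5:**
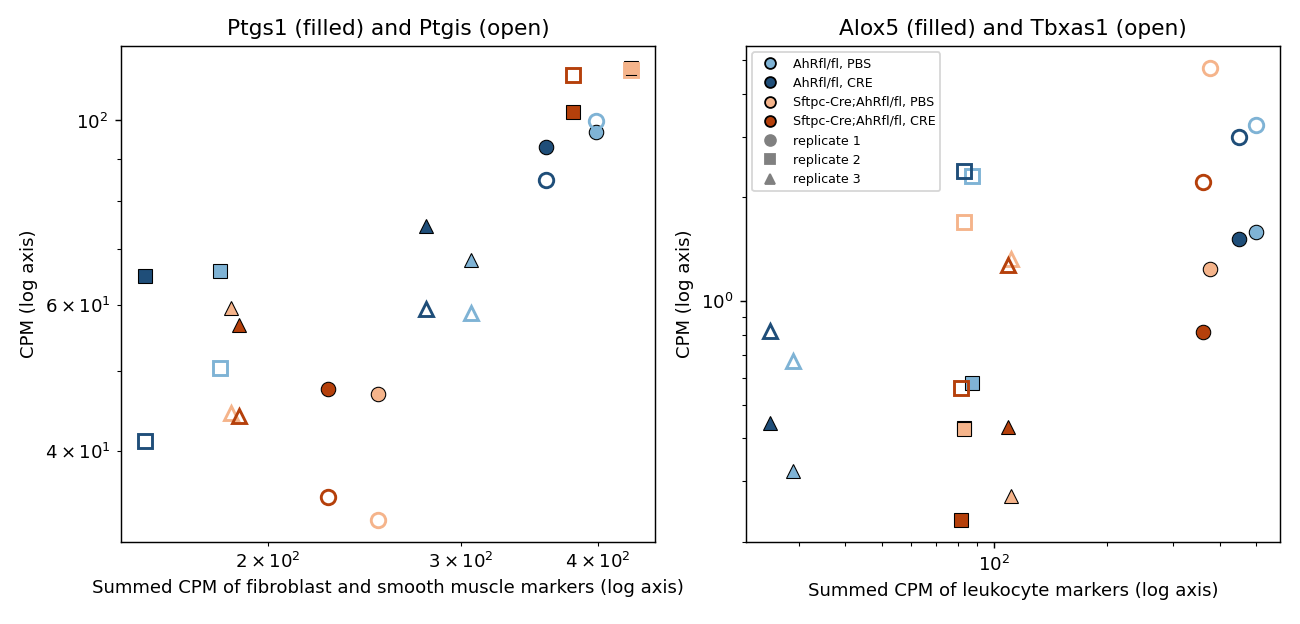
CPM (log axis) of *Ptgs1* and *Ptgis* against the summed CPM of 11 fibroblast and smooth muscle markers (left), and of *Alox5* and *Tbxas1* against that of 10 leukocyte markers (right), with 1 point per gene and library. The libraries with the highest fibroblast sums, 359.1 to 429.3 CPM, have the highest *Ptgs1* and *Ptgis*, and the 4 replicate 1 libraries, with leukocyte sums of 360.7 to 501.2 CPM, have the highest *Alox5*.

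The genes most like *Ptgs2* over the 12 libraries were *Mtmr1*, *Ptgs2os2*, *Cpox*, *Adh7* and *Tiparp*, with r of 0.927 to 0.947, which include the difference between genotypes. *Ptgs2os2* is annotated as a non-coding RNA near *Ptgs2*, and *Tiparp* is a known AhR target. After group means were subtracted none of these 5 was among the 5 most alike, which were *Fbrsl1*, *Avl9*, *Usp31*, *Gm24187* and *Rc3h1* (r of 0.946 to 0.952). *Ptges* was most like *Layn*, *Nav3*, *Vcam1*, *Oaf* and *Ltbp2* (r of 0.909 to 0.937), and most like *Lamb1*, *Col18a1*, *Vcan*, *Lmo1* and *Nsg1* (r of 0.977 to 0.981) after group means were subtracted. *Hpgd* was most like *Stoml3*, *Txnl4b*, *E030044B06Rik*, *Ndufa7* and *Krt14* (r of 0.869 to 0.911), and after group means were subtracted most like *Rpl41*, *Pi16*, *Tacr2*, *Ric3* and *Capg* (r of 0.926 to 0.951). Between members, *Ptgs2* and *Ptges* had an r of 0.328, and of 0.0058 after group means were subtracted.

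The wider pathway was read from 71 other genes for release, synthesis, transport, breakdown and reception, 56 of which passed the filter on low counts and 4 of which had no count in any library. Between genotypes none of the 56 was called, with PBS, with CRE or averaged, where the lowest adjusted p-values of the averaged comparison belonged to *Ptgr1* (0.276) and *Akr1b3* (0.328) in the edgeR quasi-likelihood test. With CRE and without pairs, none was called in *AhRfl/fl* cells, 1 in *Sftpc-Cre;AhRfl/fl* cells and 3 averaged over genotypes, all of them higher, where 0.233%, 0.262% and 1.1% of all genes were called. With pairs 6 were called in *AhRfl/fl* cells (5 higher), 5 in *Sftpc-Cre;AhRfl/fl* cells (4 higher) and 10 on average (7 higher, 3 lower), where 3.63%, 2.13% and 6.59% of all genes were called. Averaged over genotypes and without pairs, the median log2 fold change of the 56 was -0.013 beside -0.0021 over all genes.

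Of 24 genes for release of arachidonic acid, *Prdx6*, a peroxiredoxin that also has phospholipase A2 activity, was the most abundant (mean of 152.4 FPKM). It held 679.8, 758.7 and 682.4 CPM with PBS and 944.7, 995.8 and 915.5 CPM with CRE in *AhRfl/fl* cells. The *Sftpc-Cre;AhRfl/fl* cells held 685.7, 663.4 and 654.9 CPM with PBS and 802.5, 1013 and 1002 CPM with CRE. CRE and PBS libraries did not overlap in either genotype, and *Prdx6* rose on average by 0.46 (SE 0.065; adjusted p = 0.00689) in the edgeR quasi-likelihood test. *Acsl4* (28.8 FPKM) and *Lpcat3* (14.3 FPKM), enzymes that return arachidonic acid to membranes, came next in level and were not called. *Pla2g7*, which cleaves platelet-activating factor, had counts of 1425, 223 and 38 with PBS and 3346, 767 and 201 with CRE in *AhRfl/fl* cells. Counts in *Sftpc-Cre;AhRfl/fl* cells were 944, 145 and 181 with PBS and 2523, 489 and 467 with CRE. It was higher with CRE in each pair and highest in replicate 1 of each group, as the leukocyte markers were, and with pairs it rose on average by 1.61 (SE 0.17; adjusted p = 0.00297), against 1.36 (SE 0.92; adjusted p = 0.68) without.

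Among 8 other prostanoid synthases, *Ptges3* (93.9 FPKM), *Akr1b3* (62.6 FPKM) and *Gstm2* (20.2 FPKM) had the highest means. *Akr1b3*, an aldose reductase that can make prostaglandin F2α, held 497.5, 522.3 and 484.5 CPM with PBS and 769.0, 772.9 and 780.7 CPM with CRE in *AhRfl/fl* cells. Levels in *Sftpc-Cre;AhRfl/fl* cells were 341.4, 358.6 and 460.4 CPM with PBS and 568.0, 671.0 and 811.2 CPM with CRE. The treatments did not overlap in either genotype. *Akr1b3* rose on average by 0.72 (SE 0.095; adjusted p = 0.00428) and in *Sftpc-Cre;AhRfl/fl* cells by 0.82 (SE 0.13; adjusted p = 0.0357), and in *AhRfl/fl* cells the difference was 0.63 (SE 0.13; adjusted p = 0.123), or 0.63 (SE 0.043; adjusted p = 0.00182) with pairs, by the edgeR quasi-likelihood test. The call in *Sftpc-Cre;AhRfl/fl* cells without pairs was lost without replicate 1 or 2 with PBS or 2 or 3 with CRE (adjusted p up to 0.169).

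With pairs, transporters of prostaglandins changed in opposite directions. *Abcc4*, which exports prostaglandin E2, held 32.1, 22.9 and 24.2 CPM with PBS and 47.5, 42.3 and 39.95 CPM with CRE in *AhRfl/fl* cells. The *Sftpc-Cre;AhRfl/fl* cells held 31.7, 26.4 and 24.2 CPM with PBS and 42.0, 35.7 and 42.0 CPM with CRE. Already without pairs, *Abcc4* rose on average by 0.62 (SE 0.10; adjusted p = 0.017 in the edgeR quasi-likelihood test). That call was lost without *AhRfl/fl* replicate 3 with PBS (0.057), *Sftpc-Cre;AhRfl/fl* replicate 2 with PBS (0.0543) or *Sftpc-Cre;AhRfl/fl* replicate 3 with CRE (0.0531). *Abcc1*, a leukotriene C4 exporter, was higher in each pair and on average by 0.54 (SE 0.13; adjusted p = 0.0853) without pairs, and rose by 0.56 (SE 0.079; adjusted p = 0.00905) with them. *Slco2a1*, which takes prostaglandins up for breakdown, was lower with CRE in all 6 pairs, with log2 ratios between -0.70 and -0.38. On average *Slco2a1* was at -0.57 (SE 0.19; adjusted p = 0.274) without pairs and fell by 0.56 (SE 0.036; adjusted p = 0.000406) with them, in the edgeR quasi-likelihood test. *Ptgr1*, prostaglandin reductase 1, was the most abundant of the 10 genes for transport and breakdown (39.8 FPKM), ahead of *Abcc1* (7.92 FPKM) and *Slco2a1* (7.62 FPKM), and rose by 0.24 (SE 0.048; adjusted p = 0.0318) with pairs.

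Of 14 genes of the leukotriene and lipoxygenase branch, *Mgst3* (89.9 FPKM), *Lta4h* (12.2 FPKM) and *Alox5ap* (2.45 FPKM) had the highest means, and none of the branch was called by edgeR without pairs, while the rule of the paper called *Dpep2* lower with CRE in *AhRfl/fl* cells. *Cbr1*, a carbonyl reductase that acts on prostaglandins, rose by 0.24 (SE 0.047; adjusted p = 0.0305) with pairs on average, and *Pla2g15*, the lysosomal phospholipase A2, fell by 0.32 (SE 0.069; adjusted p = 0.0416). *Dpep2*, a dipeptidase that converts leukotriene D4 and whose symbol has a second gene ID that was not used, fell by 0.44 (SE 0.079; adjusted p = 0.0213) with pairs on average. The receptors were low: apart from *Ptgfrn*, a membrane protein that associates with the prostaglandin F receptor (16.1 FPKM), the highest means were 0.67 FPKM for *Ptger4*, a prostaglandin E2 receptor, and 0.623 FPKM for *Ltb4r1*, a leukotriene B4 receptor. None of the 11 receptor genes tested was called by edgeR in any comparison, with or without pairs. *Ptger4* was highest in replicate 1 of each group (7.56 to 9.49 CPM, against 1.68 to 5.39 CPM in the others), the libraries with the highest leukocyte sums.

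Over the 12 libraries the sums ran from 1145 to 2525 CPM for 10 AT1 markers, from 4148 to 8286 CPM for 6 club cell markers, from 44.8 to 191.6 CPM for 12 alveolar macrophage markers and from 169.0 to 316.3 CPM for 5 mesothelium markers. They ran from 57.7 to 112.5 CPM for 10 endothelium markers, from 6.85 to 20.4 CPM for 8 platelet markers and from 16.9 to 28.1 CPM for 11 mast cell, basophil and eosinophil markers, of which *Mcpt4* was at 0 in every library. Most of the club cell sum was *Scgb1a1*, at 3959 to 8069 CPM. The AT1 sum was lower with CRE, at 1145 to 1450 CPM against 1712 to 2172 CPM in *AhRfl/fl* cells and 1358 to 1742 CPM against 1862 to 2525 CPM in *Sftpc-Cre;AhRfl/fl* cells. The *Hpgd* and *Slco2a1* differences went the same way, and the part of AT1-type cells in them was not tested.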

How the data were processed

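RNA-seq was carried out on cultured AT2 cells in 12 libraries. The authors made stranded mRNA libraries, aligned them to GRCm38 with STAR 2.7.2b and took counts by Salmon, per the study's methods and the submitters' processing notes. The deposited counts are raw whole numbers, and the authors deposited FPKM values beside them. Whether counting used the strand is not given in the sources used here. In every library 3.86 to 4.93 times as many genes had a count of 4 as had 3 or 5, and 3.43 to 4.59 times as many had 8 as had its neighbours, so low counts may be in steps of 4 and are less precise than they look. The reason is not given in the sources used here. If counts are single units, a library with a count of 0 allows up to 3 counts. This bound does not allow for steps of 4. Depth was 68878065 to 80935797 counts.

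Symbols, positions and sequences came from GENCODE M21 and RefSeq. Genes were filtered with filterByExpr at a minimum count of 10, leaving 20612, scaled with TMM and fitted as 4 group means in edgeR 4.0.16 (R 4.3.3), using quasi-likelihood tests with p adjusted over all genes (Benjamini-Hochberg, 0.05). Libraries of the same number correlated in their deviations from the group mean over 14543 genes, by 0.729, 0.418 and 0.651 between CRE and PBS in *AhRfl/fl* cells and by 0.589, 0.542 and 0.325 in *Sftpc-Cre;AhRfl/fl* cells, so pairs within genotype were fitted beside it for CRE. Libraries of 1 group differed beyond sampling noise (chi-square per degree of freedom of 17.4 or more, with counts divided by 4). Shares were compared with an exact permutation test (scipy 1.17.1). For the paper's rule limma 3.58.1 was run on log2 CPM (prior count 2). Alternatives were DESeq2 1.42.0, limma, other size factors, no filter, the replicate number as a term, only the 6 libraries compared, leaving out each library and, added after the data were seen, counts divided by 4. Fits were tested on simulated data. The 10 genes, the 71 other pathway genes and the 12 marker lists were chosen with earlier results of these data known. Named are all 10 genes, every pathway gene called, the 3 most abundant per role, the 5 genes most correlated with each of 5 members, and *Ahr*, *Cyp1a1*, *Cyp1b1* and *Sftpc*, while other genes were named after their values were seen. Of 73 pathway symbols 71 were matched.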

Additional observations from a re-analysis of the deposited data

Results flagged for a closer look

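*Ptges2*, a prostaglandin E synthase that was nearly level over all libraries, was lower with CRE in all 3 same-numbered pairs of *AhRfl/fl* cells (mean log2 ratio -0.078) and higher in all 3 pairs of *Sftpc-Cre;AhRfl/fl* cells (mean log2 ratio 0.14). The opposite directions drew attention to it. The difference itself was 0.22 (SE 0.13; adjusted p = 1.0) by the edgeR quasi-likelihood test, and 0.22 (SE 0.088; adjusted p = 0.538) with pairs within genotype, so it was not called. Of all genes tested, 4.48% had pairs in opposite directions in this way. Groups of 3 libraries are too small to test for a single library that stands apart.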

How the results depend on the processing

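Of the 25 results for single genes, 417 values under alternatives were computed: 363 kept direction and side of the threshold, 19 lost and 35 gained the call, and 0 turned direction. Values that stayed uncalled count as kept, such as 20 of 20 for the difference of the *Ptgs2* response, so the tally does not measure how stable the calls were. For *Ptgs2* between genotypes, 7 of 14 alternatives kept the call with PBS and 11 of 14 that with CRE. Called among the 10 genes with CRE in *AhRfl/fl* cells were 0, against 1 with DESeq2, 1 with the replicate number as a block, 2 with the block within genotype and 1 with the paper's rule, and in *Sftpc-Cre;AhRfl/fl* cells 0, against 1 with the block within genotype. Averaged over genotypes 0 were called, against 1 with DESeq2, 1 with limma and Benjamini-Hochberg adjustment, 1 with the replicate block, 4 with the block within genotype and 1 with the paper's rule. Between genotypes 1 was called with PBS, against 0 with no filter (adjusted p of *Ptgs2* 0.05) and 0 with only the 6 libraries, and 1 with CRE, against 0 with only the 6 libraries. Leaving out single libraries gave 0 to 1 with PBS, 0 to 1 with CRE, 0 to 1 for CRE averaged and 1 to 1 for the averaged genotypes. Over all genes it gave 15 to 26, 21 to 30, 125 to 219 and 78 to 110 in that order. Of the 56 other pathway genes, called with CRE in *AhRfl/fl* cells were 0 (0.233% of all genes), against 4 with DESeq2 (1.06%), 2 with the replicate block (0.665%), 6 with the block within genotype (3.63%), 1 with only the 6 libraries and 4 with the paper's rule (4.11%). In *Sftpc-Cre;AhRfl/fl* cells 1 was called (0.262%), against 2 (0.681%), 2 (0.543%), 5 (2.13%), 0 and 6 (3.38%) in that order, and 2 with counts divided by 4. Averaged, 3 were called (1.1%), against 5 with DESeq2 (2.06%), 10 with the block within genotype (6.59%) and 5 with the paper's rule (4.02%), which also called 1 between genotypes with CRE (3.42%) and 1 for the difference of the response (2.3%). Leaving out single libraries gave 2 to 4 averaged and 0 to 2 in *Sftpc-Cre;AhRfl/fl* cells, where 125 to 219 and 23 to 62 of all genes were called. The cause of the differences between settings was not tested. Counts with adjusted limma, with only the 6 libraries and with counts divided by 4 have no share over all genes beside them here. They are therefore not read against such a share. The share of *Ptgs2* ranged, without single libraries, from 3.77 to 5.07 points for CRE in *AhRfl/fl* cells, from -0.772 to 10.1 in *Sftpc-Cre;AhRfl/fl* cells, from -12.9 to -3.15 between genotypes with PBS and from -10.7 to -3.30 with CRE. In these ranges the library paired with the one left out was kept.

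Over all genes, DESeq2 called 340, 218, 220, 159 and 21 genes for CRE in *AhRfl/fl*, CRE in *Sftpc-Cre;AhRfl/fl*, genotype with PBS, genotype with CRE and the difference of the response, and 659 and 511 for CRE and genotype averaged. The replicate block gave 137, 112, 71, 55, 0, 529 and 223 in that order, where the numbers of the 2 genotypes share only a number (correlations of 0.42, 0.0416 and 0.106 with PBS and 0.413, -0.0286 and 0.0867 with CRE) and *Ptgs2* was called in all 3 genotype comparisons. The block within genotype gave 748, 439 and 1358 for CRE. With only the 6 libraries, 13 genes were called for CRE in *Sftpc-Cre;AhRfl/fl* cells and 15 between genotypes with PBS, against 54 and 31. Counts of *Alox15* were between 4 and 47, where counting in possible steps of 4 is coarse. Nothing in the labels says that the 3 libraries of a group came from separate mice or cultures, so p-values measure the spread between these samples, which may be technical.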

Other observations

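*Ptgr1*, which reduces prostaglandins and leukotriene B4, was higher in *Sftpc-Cre;AhRfl/fl* than in *AhRfl/fl* cells by 0.25 (SE 0.079) on the log2 scale averaged over treatments, and *Akr1b3* was lower by -0.28 (SE 0.094). Neither was called (adjusted p = 0.276 and 0.328 in the edgeR quasi-likelihood test), and they were the only 2 of the 56 pathway genes tested with an unadjusted p below 0.05 in that comparison, where 9.93% of all genes had one. *Ptgr1* did not overlap between genotypes with CRE (96.2 to 106.0 CPM in *AhRfl/fl* and 108.6 to 132.5 CPM in *Sftpc-Cre;AhRfl/fl* libraries), and *Akr1b3* did not overlap with PBS (484.5 to 522.3 CPM against 341.4 to 460.4 CPM).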
